A study of Homo sapiens with 8 samples.

Results

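GADD45 and BTG/TOB proteins restrain cell division, and their messengers are induced by stress and DNA damage in many cell types. GADD45A, GADD45B and GADD45G are small adaptor proteins that bind cyclin B/CDK1, PCNA and the MAP3K4 kinase, whereas BTG1, BTG2, BTG3, TOB1 and TOB2 are antiproliferative proteins of a family whose members contact the CCR4-NOT deadenylase, the complex that shortens poly(A) tails. PPM1D (Wip1) is a phosphatase that is induced by DNA damage and acts against ATM and p38 signaling. The RNAs of these 9 genes were followed by all 11 array probes that carry their names, of 50599 probes with 36337 names in all. GADD45G and PPM1D were each read by a pair of probes, and the other genes by 1 probe each.

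The RNAs were from FT293 cells, a human embryonic kidney line (HEK293 in the labels) in which tetracycline switches on a transgene integrated at a single genomic site. The 4 lines expressed GFP alone, GFP-HuR, GFP-TIA1 or GFP-TIAR, and RNA was taken on day 3 of tetracycline. TIA1, TIAR and HuR are RNA-binding proteins with a preference for U-rich stretches, and the comparisons ask how RNA levels differ between cells that express TIA proteins and cells that express HuR or the tag alone. Each line was hybridized on 2 one-colour arrays from independent biological replicates, and all 8 arrays shared 1 slide. Each protein was expressed in 1 line, so the protein and other differences between the lines cannot be told apart. Levels are given on the log2 scale relative to the 75th percentile of the array, and levels of different probes are not comparable with each other.

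All 11 probes were well above background, as the scanner software marks it, on all 8 arrays. The GFP replicate 1 array stood apart from the others. On it, 86.0% of all probes were well above background, against 53.2% to 58.5% on the other 7 arrays, its local background was 83.2 intensity units against 35.7 to 41.5, and 15.8% of the probes differed at least 2-fold between the GFP replicates, against 0.455% to 1.45% within the other lines. The difference between replicates of the 11 probes had a median of 0.32 in GFP cells, against 0.07 in HuR-, 0.09 in TIA1- and 0.12 in TIAR-expressing cells. Of 7 genes typical of HEK293 cells, 6 had a probe well above background on all 8 arrays, the exception being NEFM with 7 arrays. Of 6 markers of other cell types 1 did, through a single PTPRC probe. ALB was well above background on 6 arrays, and read -3.13 to -2.76 on the TIA arrays against -6.04 to -3.53 on the others. A probe of TIAL1, which encodes TIAR, read 4.87 and 4.98 in TIAR-expressing cells and 1.63 to 2.52 on the other arrays, whereas a second TIAL1 probe read -4.12 and -3.85 in TIAR-expressing cells and -4.36 to -3.45 elsewhere. The probes of TIA1 and of ELAVL1, which encodes HuR, were not higher in the lines labelled with these proteins. The TIA1 probes read -1.26 to -0.94 and -1.77 to -0.94 on the TIA arrays. On the GFP and HuR arrays they read -0.74 to -0.32 and -0.05 to 0.17. ELAVL1 read 0.33 and 0.42 in HuR-expressing cells, 1.09 and 0.91 in GFP cells and -0.28 to 0.82 on the TIA arrays. Whether these probes lie in the expressed coding sequences was not analysed here.

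The probes of GADD45B and BTG3, the genes on which the results turn, and the pair of PPM1D probes show what part of each RNA was read. All probes have 60 bases. Of each, the 30 bases richest in T (U in the RNA) are printed 5′ to 3′, with runs of at least 3 T in capitals. The GADD45B probe lies at chr19:2478178-2478237 on the plus strand of hg19 (GRCh37), the BTG3 probe at chr21:18966060-18966119 on the minus strand, and the PPM1D probes at chr17:58741635-58741694 and chr17:58734142-58734201 on the plus strand. Exon and UTR positions were not assigned.
GADD45B A_24_P239606: catagatatctataTTTTTaTTTctactat
BTG3 A_23_P80068: TTTgttctagcaccTTTgagaaTTTacTTT
PPM1D A_32_P150030: tcttaaagtagttactcccttctcgtgTTT
PPM1D A_33_P3302696: acctgtgtgatgactccttccccatgttct
The whole GADD45B probe held 21 T (35.0%), the BTG3 probe 23 (38.3%) and the PPM1D probes 23 (38.3%) and 16 (26.7%), beside a median of 28.3% over all 50599 probes. Runs of at least 5 T were present in 5 of the 11 probes (GADD45A, GADD45B, BTG1, TOB1 and TOB2) and in 10.6% of all probes. The AU-rich pentamer ATTTA was present in 1, that of BTG3, and in 7.79% of all probes.

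GADD45B was the GADD45 gene that differed most between the lines. GADD45B encodes a stress-induced activator of the MAP3K4-p38/JNK cascade. Its processed signals were 7402 and 7622 in GFP, 5059 and 5289 in HuR-, 13713 and 14075 in TIA1- and 14496 and 13505 in TIAR-expressing cells. Relative to the 75th percentile, its levels were 2.19 and 2.51 in GFP cells, 1.69 and 1.66 in HuR-, 3.42 and 3.55 in TIA1-, and 3.38 and 3.37 in TIAR-expressing cells. The 4 TIA arrays lay above both GFP arrays, which in turn lay above both HuR arrays. GADD45B was upregulated 3.49-fold in TIA1- versus HuR-expressing cells, a log2 difference of 1.80 ± 0.10 (SE, n = 2 arrays per line, limma adjusted p = 0.0023), and 3.24-fold in TIAR- versus HuR-expressing cells, a difference of 1.69 ± 0.09 (limma adjusted p = 0.0039). RNA per cell and the share of cells that carry an RNA cannot be told apart in such bulk samples. TIA1- and TIAR-expressing cells differed by -0.11 ± 0.12 in GADD45B (TIAR minus TIA1, limma adjusted p = 0.61).

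BTG3 had another pattern. BTG3 (ANA) is an antiproliferative protein of the family. Its processed signals were 10169 and 10413 in GFP, 10692 and 11260 in HuR-, 24787 and 23260 in TIA1- and 12041 and 9669 in TIAR-expressing cells. Its levels were 2.64 and 2.96 in GFP cells, 2.77 and 2.75 in HuR-, 4.27 and 4.27 in TIA1- and 3.11 and 2.89 in TIAR-expressing cells. Both TIA1 arrays lay above all 6 others, and the TIAR arrays overlapped those of GFP. BTG3 was upregulated 2.84-fold in TIA1- versus HuR-expressing cells (log2 difference 1.51 ± 0.09, limma adjusted p = 0.0025), whereas TIAR- and HuR-expressing cells differed by 0.23 ± 0.12 (limma adjusted p = 0.20). The TIA lines were also compared directly. BTG3 was 2.42-fold lower in TIAR- than in TIA1-expressing cells, with a log2 difference of -1.27 ± 0.13 (limma adjusted p = 0.030). The call of this direct difference was lost without any one of the 4 arrays, at differences of -1.39 to -1.16. Such a fit leaves 1 array in a line, and nearly all calls over all probes were lost in it too. The BTG3 call was also lost with the replicate number as a block (limma adjusted p = 0.082) and without the filter on dim probes (limma adjusted p = 0.23). In these settings 0 of all tested probes were called.

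**Figure D1:**
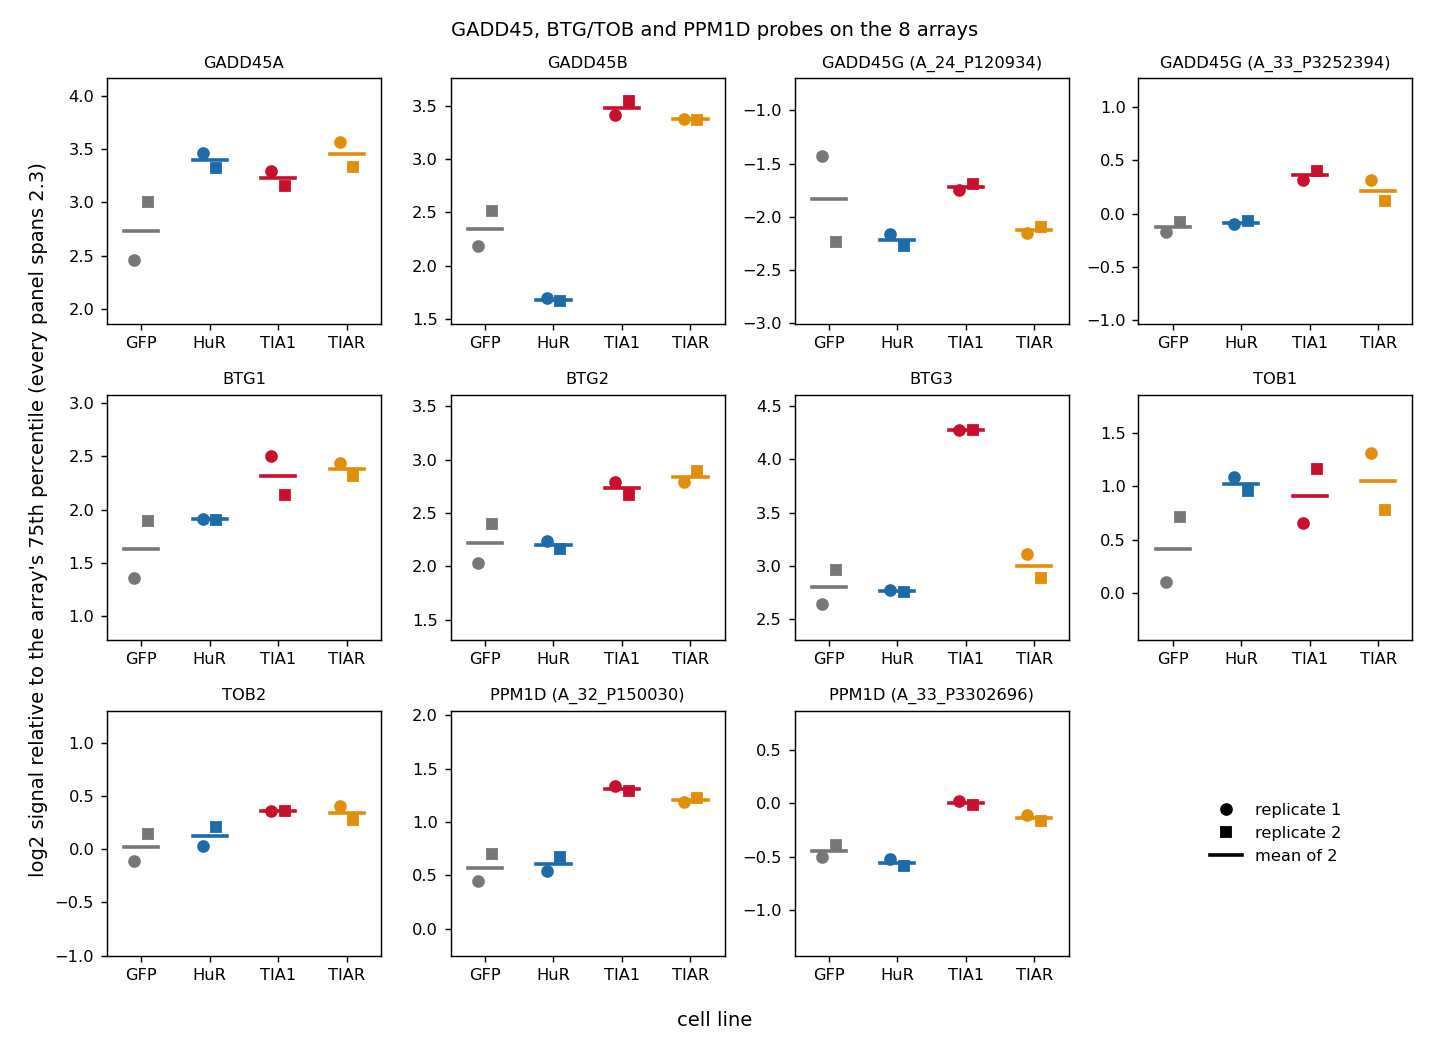
Log2 signal relative to the array's 75th percentile (y axis) of the 11 probes in the GFP, HuR, TIA1 and TIAR lines (x axis). Circles are replicate 1, squares replicate 2 and bars their mean, and all panels span the same range. GADD45B stands at 3.37 to 3.55 on the 4 TIA arrays and at 1.66 to 2.51 on the others, and BTG3 stands at 4.27 on the TIA1 arrays and at 2.64 to 3.11 on the others.

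In TIA1- versus HuR-expressing cells, 2 of the 11 probes were called higher at 2-fold and an adjusted p under 0.05, beside 8.51% of all 28717 tested probes, and 0 were called lower, beside 4.9%. Those probes were the ones of GADD45B and BTG3. In TIAR- versus HuR-expressing cells, GADD45B was the 1 probe called higher, beside 7.06% of 29052 probes, and 0 were lower, beside 3%. In TIAR- versus TIA1-expressing cells, 0 were called higher, beside 1.25% of 28016 probes, and 1, that of BTG3, was called lower, beside 1.11%. The median log2 difference of the 11 probes was 0.50 in TIA1 versus HuR, 0.30 in TIAR versus HuR and -0.11 in TIAR versus TIA1, beside medians of 0.08, 0.05 and -0.02 over all tested probes. Of the calls over all probes, 63.4% were higher in TIA1 and 70.2% in TIAR, with quantile normalization these shares were 52.9% and 56.1%, and without scaling they were 26.7% and 40.6%. The comparisons with HuR share the HuR arrays.

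At any fold change, 7 of the 11 probes were higher in TIA1 versus HuR at an adjusted p under 0.05, beside 24.2% of all tested probes (41.5% in either direction), and 5 in TIAR versus HuR, beside 18.1% (30.7% in either direction). Apart from the called probes of GADD45B and BTG3, these differed by less than 2-fold. PPM1D read 1.34 and 1.29 in TIA1- and 1.18 and 1.22 in TIAR-expressing cells with its probe A_32_P150030, against 0.54 and 0.67 in HuR-expressing and 0.45 and 0.70 in GFP cells. With A_33_P3302696 it read 0.02 and -0.01 in TIA1, -0.11 and -0.17 in TIAR, -0.53 and -0.58 in HuR and -0.50 and -0.39 in GFP cells. The TIA arrays lay above the HuR and GFP arrays with both probes. The differences were 0.70 ± 0.10 and 0.56 ± 0.09 in TIA1 versus HuR (limma adjusted p = 0.010 and 0.014) and 0.59 ± 0.10 and 0.42 ± 0.10 in TIAR versus HuR (limma adjusted p = 0.021 and 0.039), so that the probes of the gene gave the same direction.

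BTG2, a member that recruits the deadenylase to mRNAs, read 2.79 and 2.67 in TIA1-, 2.79 and 2.89 in TIAR- and 2.23 and 2.17 in HuR-expressing cells, with 2.03 and 2.40 in GFP cells. The TIA arrays were above all others, and the differences from HuR were 0.53 ± 0.10 in TIA1 (limma adjusted p = 0.019) and 0.64 ± 0.10 in TIAR (limma adjusted p = 0.017). BTG1, its close relative, read 2.50 and 2.13 in TIA1, 2.44 and 2.32 in TIAR and 1.91 and 1.91 in HuR cells, and its difference from HuR passed the adjusted p in TIAR (0.47 ± 0.10, limma adjusted p = 0.034) and not in TIA1 (0.41 ± 0.15, limma adjusted p = 0.10). The GADD45G probes, which read a gene known as a growth suppressor silenced in several tumors, differed by 0.50 ± 0.10 and 0.45 ± 0.09 in TIA1 versus HuR (limma adjusted p = 0.021 and 0.025). In TIAR versus HuR they differed by 0.10 ± 0.10 and 0.30 ± 0.11 (limma adjusted p = 0.50 and 0.12).

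These smaller differences were less stable than the calls of GADD45B and BTG3 in the comparisons with HuR. All of them kept their direction in the 13 alternatives run for single probes, and each passed the adjusted p in 6 to 9 of these. None passed without HuR replicate 1, without HuR replicate 2, with dim probes tested too, or without scaling, an alternative chosen after seeing the data. Without a HuR array that line has 1 array left, and fewer of all probes were called in both comparisons. BTG2, for example, differed by 0.57 and 0.50 in TIA1 versus HuR without HuR replicate 1 and 2, and did not pass. With quantile normalization it differed by 0.59 (limma adjusted p = 0.012). The PPM1D probes differed by 0.72 and 0.52 in TIA1 versus HuR with quantile normalization (limma adjusted p = 0.0087 and 0.015). The 75th percentile of the processed signal was 1566 and 1668 on the HuR arrays, 1284 and 1205 on the TIA1 arrays and 1395 and 1308 on the TIAR arrays, so that leaving out the scaling lowers every probe alike, by 0.38 in TIA1 versus HuR and by 0.26 in TIAR versus HuR. GADD45B was then called at 1.43 and 1.44 in these comparisons, and BTG3 at 1.13 in TIA1 versus HuR.

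**Figure D2:**
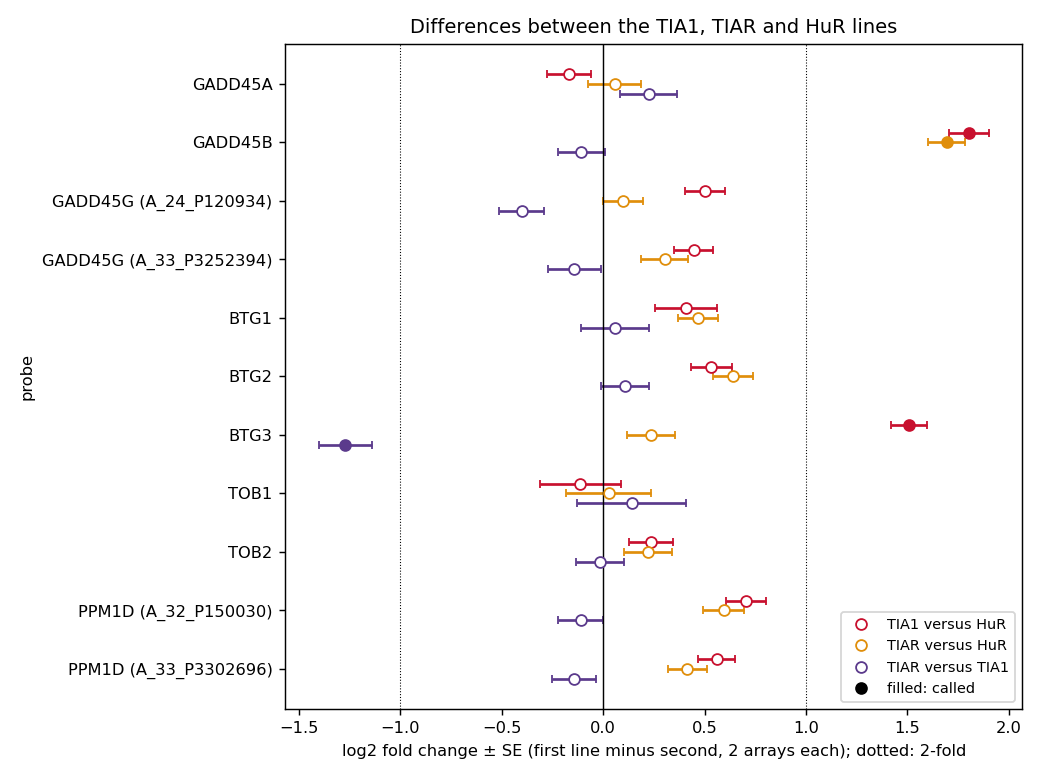
Log2 fold change with its SE (x axis) of the 11 probes (y axis) between lines with 2 arrays each. Filled points are called at 2-fold (dotted lines) and an adjusted p under 0.05. GADD45B is called in both comparisons with HuR, at 1.80 and 1.69, and BTG3 in TIA1 versus HuR at 1.51 and in TIAR versus TIA1 at -1.27.

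**Figure D3:**
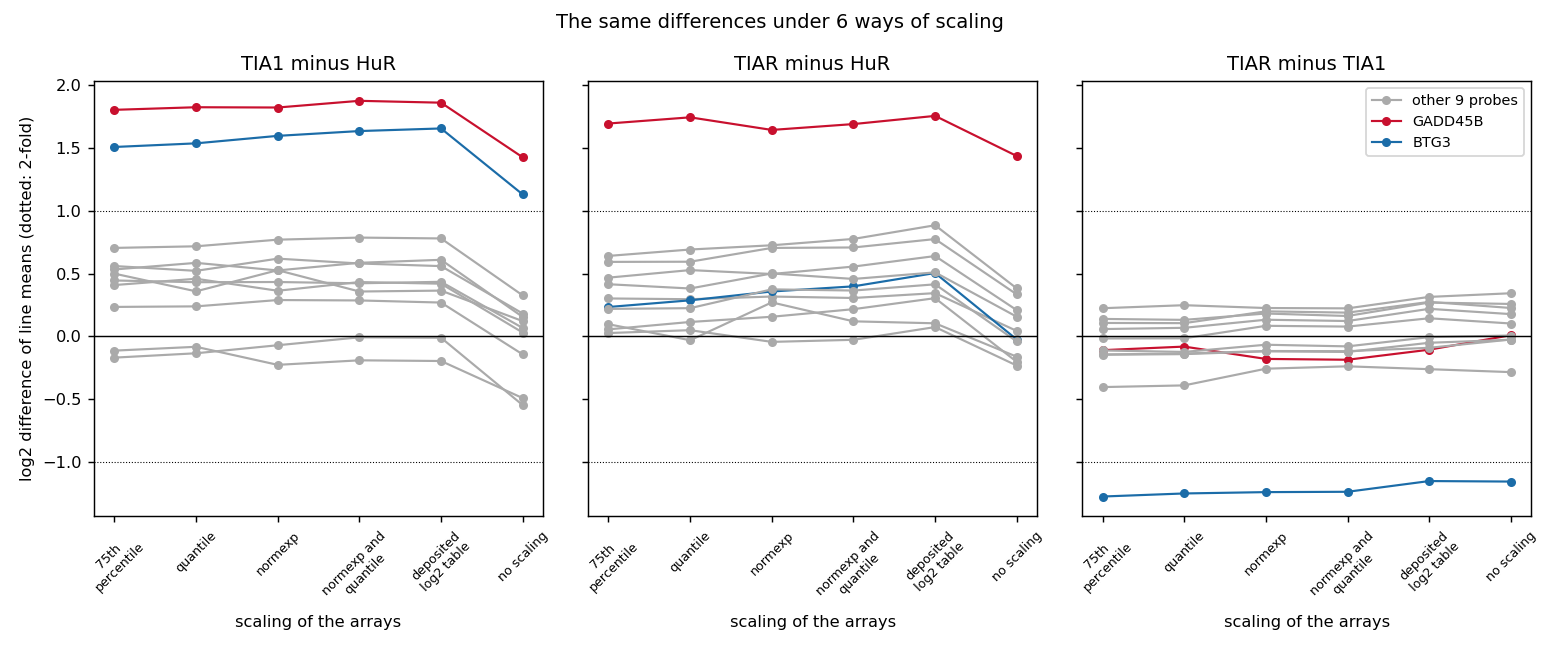
Log2 difference of line means (y axis) of the 11 probes under 6 scalings of the arrays (x axis), in 3 comparisons. GADD45B stays between 1.43 and 1.87 in TIA1 minus HuR and BTG3 between 1.13 and 1.66, and without scaling all 11 probes are lower by the same amount in each comparison with HuR.

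The remaining members did not pass the test between the TIA and HuR lines in the main setting. GADD45A, the founder of its family, read 3.16 to 3.57 on the 6 arrays of the HuR, TIA1 and TIAR lines, above both GFP arrays, where its mean was 2.73 ± 0.39 (SD, n = 2). Its difference from HuR was -0.17 ± 0.11 in TIA1 (limma adjusted p = 0.28) and 0.06 ± 0.13 in TIAR (limma adjusted p = 0.77). Under the 6 scalings, its difference in TIA1 versus HuR ran from -0.55 without scaling (limma adjusted p = 0.025) to -0.01. TOB1, an inhibitor of proliferation that binds both the deadenylase and poly(A)-binding protein, had the widest replicate spread of the TIA lines, with 0.65 and 1.17 in TIA1- and 1.32 and 0.78 in TIAR-expressing cells, beside 1.09 and 0.95 in HuR-expressing and 0.11 and 0.71 in GFP cells. TOB2, its relative, read -0.11 to 0.41 on the 8 arrays, and its differences from HuR were 0.24 ± 0.11 in TIA1 and 0.22 ± 0.12 in TIAR (limma adjusted p = 0.15 and 0.23).

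Against the GFP line no probe of the array was called higher or lower, so that the share called was 0% in TIA1, TIAR and HuR versus GFP, in either direction. Unadjusted p-values under 0.05 were found by limma for 6053, 4670 and 4956 of all probes, and for 3, 2 and 1 of the 11. For its array calls in the TIA versus HuR lines, the paper used limma, a false discovery rate under 0.05 and a 2-fold change. The study's methods also name a paired test for comparing groups in general. Without adjustment, that paired test called 414 probes higher and 305 lower in TIA1 versus GFP. It called 305 and 206 in TIAR versus GFP and 162 and 269 in HuR versus GFP. Among all these calls were 0 of the 11. GADD45B differed from GFP by 1.13 ± 0.22 in TIA1 (limma adjusted p = 0.12), 1.03 ± 0.22 in TIAR (limma adjusted p = 0.21) and -0.67 ± 0.19 in HuR (limma adjusted p = 0.25). BTG3 differed by 1.47 ± 0.21 in TIA1 (limma adjusted p = 0.10), 0.20 ± 0.23 in TIAR (limma adjusted p = 0.68) and -0.04 ± 0.19 in HuR (limma adjusted p = 0.92).

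The values against GFP rested on GFP arrays that differed from each other. Without GFP replicate 1, the array that stood apart, BTG3 was called in TIA1 versus GFP (1.31, limma adjusted p = 0.027), beside 3213 of 28013 probes, and GADD45B was at 0.97 in TIA1 (limma adjusted p = 0.044), 0.86 in TIAR (limma adjusted p = 0.067) and -0.83 in HuR (limma adjusted p = 0.024), each below 2-fold. Without GFP replicate 2, GADD45B (1.30) and BTG3 (1.63) were called in TIA1 versus GFP and GADD45B (1.19) and BTG1 (1.02) in TIAR versus GFP, beside 6606 of 28012 and 6072 of 28552 probes. Leaving out either array leaves a single GFP array, which is then assumed to vary like the other line. The part of the higher background of GFP replicate 1 in these values was not tested.

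**Figure D4:**
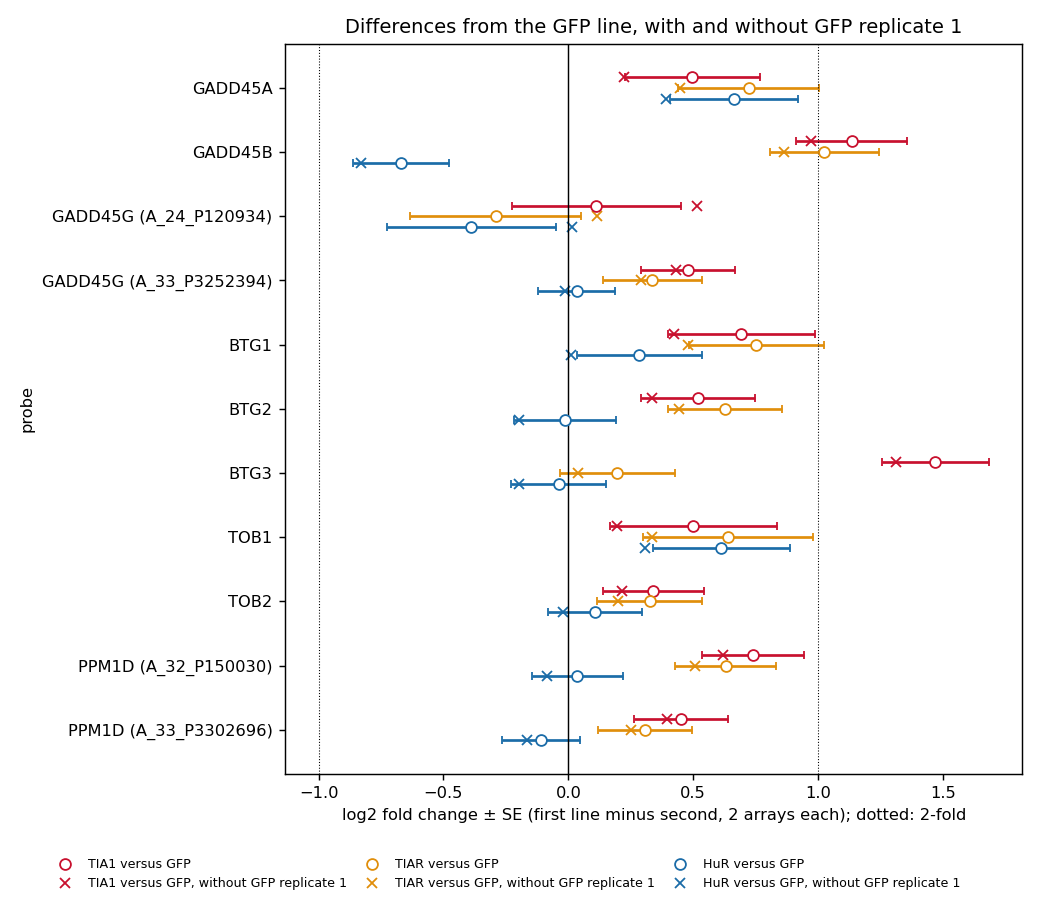
Log2 fold change with its SE (x axis) of the 11 probes (y axis) in TIA1, TIAR and HuR versus GFP, with 2 arrays per line (circles) and without GFP replicate 1 (crosses). GADD45B lies above 0 in the TIA lines and at -0.67 in HuR, BTG3 lies at 1.47 in TIA1, 0.20 in TIAR and -0.04 in HuR, and GADD45G A_24_P120934 moves from 0.11 to 0.52 in TIA1 without GFP replicate 1.

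In the order of the line means, GADD45B ran TIA1, TIAR, GFP and HuR. No pair of neighbours in this order passed the test, although their arrays did not overlap. BTG3 had the same order, in which TIA1 and TIAR differed by the test and the arrays of the other neighbours overlapped. Both arrays of TIA1 lay above both of HuR in 9 of the 11 probes and below in 1, beside 43.3% and 32.3% of all tested probes, and for TIAR versus HuR these counts were 9 and 0, beside 40.2% and 31.4%. The log2 changes of the GADD45G probes differed by -0.05 in TIA1 versus HuR, 0.20 in TIAR versus HuR and 0.63 in TIAR versus GFP, where without GFP replicate 1 their changes were 0.11 and 0.29. The largest such difference between the PPM1D probes was -0.32, in TIAR versus GFP.

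The probes of other genes whose levels over the 8 arrays were most like those of GADD45B, among 19553 compared, were CHRD (Pearson r = 0.997), CACNB3 (r = 0.996) and ITGA8 (r = 0.995). For BTG3 they were ATP6V1G2 (r = 0.992), ALDH4A1 (r = 0.991) and TYW1B (r = 0.989). These correlations are a description over 8 arrays of 4 lines and were the highest of many. Between the members, r was 0.97 for GADD45B with PPM1D A_33_P3302696, 0.91 for GADD45B with BTG2 and 0.70 for GADD45B with BTG3. It was 0.20 for GADD45B with GADD45A and 0.21 with TOB1. The GADD45G probes differed, with r = 0.27 for GADD45B with A_24_P120934 and 0.88 with A_33_P3252394, and 0.17 with each other. These values include GFP replicate 1, the array with the higher background. On it A_24_P120934 read -1.43, against -2.24 on GFP replicate 2 and -2.28 to -1.69 on the arrays of the other lines. The part of that array in the low correlations was not tested.

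The partners of these proteins were read from gene lists. Of 13 partners of the GADD45 proteins, all with tested probes, PCNA, CCNB1 and MAPK11 had a probe called higher in both comparisons with HuR and 0 had one called lower. These were 4 of the 25 tested probes in each comparison, beside 8.51% of all probes called higher in TIA1 and 7.06% in TIAR. The shares of all probes called lower were 4.9% and 3%. PCNA, the replication clamp, differed by 1.12 ± 0.13 and 1.04 ± 0.13 with its called probe (limma adjusted p = 0.0064 and 0.011). With its other probes it differed by 0.62 to 0.99, below 2-fold. Versus GFP, without a call, the called PCNA probe was at 0.52 in TIA1, 0.44 in TIAR and -0.60 in HuR. For CCNB1, the cyclin B1 partner of CDK1, the probes disagreed. One was higher by 1.63 ± 0.10 in TIA1 and 1.30 ± 0.11 in TIAR (limma adjusted p = 0.0026 and 0.0064). The other was lower, by less than 2-fold, at -0.35 ± 0.10 and -0.36 ± 0.09 (limma adjusted p = 0.048 and 0.0499). Versus GFP, without a call, the CCNB1 probe called against HuR was at 0.79 in TIA1, 0.47 in TIAR and -0.84 in HuR. MAPK11, the p38β kinase downstream of MAP3K4, was higher with both probes, by 1.05 and 1.37 in TIA1 and 1.03 and 1.32 in TIAR versus HuR. Against GFP, without a call, these probes were at -0.18 and 0.55 in TIA1 and -0.19 and 0.50 in TIAR. In HuR versus GFP they were at -1.22 and -0.82. The median of the 25 tested probes of this list was 0.23 in TIA1 and -0.03 in TIAR versus HuR.

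Of 17 genes of the CCR4-NOT and related deadenylase and poly(A) factors, CNOT4, a ubiquitin ligase of the complex, had probes called higher in TIA1 versus HuR. They were 3 of the 28 probes of the list, beside 8.51% of all probes, and were higher by 1.08 to 1.33, whereas its remaining probes were at 0.07 and -0.09. In TIAR versus HuR 0 of the 17 genes were called, beside 7.06% of all probes higher, and the 3 CNOT4 probes were at 0.41 to 0.81. These 28 probes had a median of -0.10 in TIA1 and -0.06 in TIAR versus HuR. Neither list had a called gene in the comparisons with GFP, in which 0% of all probes were called. The same held in TIAR versus TIA1, beside 1.25% of all probes called higher and 1.11% called lower.

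Promoter sequences, taken from RefSeq on GRCh38.p14, were at hand for 8 of the 9 genes. Those of GADD45B and BTG3, which were both called in TIA1 versus HuR, are shown for the 200 bases before the start of transcription, 5′ to 3′ on the strand of the gene. Capitals mark motifs that were searched on both strands, namely TATAAA (the TATA box), the CCAAT box, an E-box spelled CACGTG and a GC box spelled GGGCGG. The GADD45B promoter is chr19:2475927-2476126 on the plus strand, with 68.0% G and C, and the BTG3 promoter is chr21:17612902-17613101 on the minus strand, with 79.0%, beside a median of 59% over all 35116 promoters.
GADD45B: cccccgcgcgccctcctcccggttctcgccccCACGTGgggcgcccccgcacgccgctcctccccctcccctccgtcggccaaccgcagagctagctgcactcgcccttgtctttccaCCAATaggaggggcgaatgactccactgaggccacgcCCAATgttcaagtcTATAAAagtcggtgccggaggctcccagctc
BTG3: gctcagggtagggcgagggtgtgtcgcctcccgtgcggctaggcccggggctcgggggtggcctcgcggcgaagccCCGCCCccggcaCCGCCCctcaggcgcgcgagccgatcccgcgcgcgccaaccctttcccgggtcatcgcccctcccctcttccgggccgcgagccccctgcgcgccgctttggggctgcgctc
GADD45B held CCAAT at 82 and 45 bases before the start, a TATAAA at 31 and a CACGTG at 168, and BTG3 held none of these but GGGCGG on the opposite strand at 124 and 112. CCAAT occurs in 28% of all promoters of this length, TATAAA in 8.59%, CACGTG in 5.49% and GGGCGG in 40.1%. A CACGTG was also present in GADD45G and a TATAAA in BTG1. Among the members, CCAAT was also found in GADD45G, BTG1, BTG2, TOB1 and PPM1D, and GGGCGG in BTG1, BTG2, TOB1, TOB2 and PPM1D. These matches are a description of the sequence.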

How the data were processed

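RNA of the 4 FT293 lines was read on 8 one-colour Agilent arrays of 62976 spots, 2 arrays per line. The authors scanned them with Agilent Feature Extraction 10.7.3.1, and the processed signals they deposited are intensities, with the background of each array subtracted and no scaling from array to array. Their deposited table of log2 values had medians of 7.50 to 7.51 for the HuR, TIA1 and GFP replicate 2 arrays, 7.41 for GFP replicate 1 and 7.36 for TIAR. Its deviations from the mean of each probe followed those of the same array best (r = 0.685 to 0.935), and its background correction is not given in the sources used here.

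Outlier spots were left out, processed signals were put on the log2 scale minus the array's 75th percentile, and spots of a probe were averaged. A probe was tested where 1 of the lines compared had it marked well above background on its 2 arrays. Each comparison fitted its own 4 arrays with limma 3.58.1 (lmFit and eBayes, R 4.3.3), and calls needed a 2-fold change and a Benjamini-Hochberg adjusted p under 0.05 over all tested probes. The fit was tested on simulated data. The R package data.table (1.17.8) read the files, and the figures used matplotlib 3.10.9. With 2 arrays per line, their number limits the precision.

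The 9 members, the lists and the alternatives were chosen with earlier results of these data known. Every member probe is described, with list genes that had a called probe and the 3 probes most like each called member. Other settings tried were quantile normalization, normexp background correction (offset 50), these together, the deposited log2 table and testing dim probes too. Another tested only probes that all 4 arrays showed well above background. Further settings were a joint fit of the 8 arrays, a block for the replicate number, dropping single arrays and, added after seeing the data, no scaling. The general paired test of the study's methods was also tried, although the paper called its arrays by limma. One of the gene lists, in which no probe was called in any comparison, is not reported here.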

Additional observations from a re-analysis of the deposited data

Results flagged for a closer look

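The difference of BTG3 between the TIA lines, under the same expression system, was -1.27 on the log2 scale (TIAR minus TIA1, limma adjusted p = 0.030), as a test of the difference itself. Both TIA1 arrays (4.27 and 4.27) lay above both TIAR arrays (3.11 and 2.89). The call was lost without any one of the 4 arrays, where the difference was -1.39 to -1.16. Such a fit leaves 1 array in a line, and nearly all calls over all probes were lost in it too. For GADD45B, the other called gene, the same difference was -0.11 (limma adjusted p = 0.61).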

How the results depend on the processing

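The calls of GADD45B in TIA1 and TIAR versus HuR and of BTG3 in TIA1 versus HuR were kept in all 13 alternatives run for single probes, with log2 differences of 1.43 to 1.87, 1.44 to 1.75 and 1.13 to 1.66, and BTG3 in TIAR versus TIA1 was kept in 7 of 13 (-1.39 to -1.15). None of the values of single member probes that were called turned its direction. The all-8-array fit called 2 member probes in TIA1 versus GFP (GADD45B and BTG3) and 1 in TIAR versus GFP (GADD45B), beside 9.04% and 5.92% of all probes, which were 2530 and 1690, and 1133 in HuR versus GFP. Leaving out GFP replicate 1 or GFP replicate 2 gave calls of member probes in TIA1 versus GFP. In TIAR versus GFP, leaving out GFP replicate 2 did so and leaving out GFP replicate 1 did not. These fits leave 1 GFP array, and many probes of the whole array were called in them. In TIAR versus TIA1, no member was called without any 1 array, and few of all probes were. The count of members in TIAR versus TIA1 was 0 without the dim filter, with the replicate block and with the paired test of the study's methods. Of all probes, 0% were called without the dim filter and with the block, and 1.52% with the unadjusted paired test. After Benjamini-Hochberg adjustment that paired test called 0 in TIA1 versus HuR, TIAR versus HuR and TIAR versus TIA1, as over all probes, where it called 0.

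With the replicate number as a block, 2 and 1 member probes were called in TIA1 and TIAR versus HuR, beside 13.6% and 10.1% of all probes. In the other comparisons 0 were called, beside 0% of all probes. Deviations of same-numbered arrays correlated at -0.09 to 0.18 over 24959 probes, so that the numbers were not taken as a pairing.

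Over all probes, 3851 were called in TIA1 versus HuR, 1697 with the deposited log2 table, 1705 with normexp and quantile, 1954 with the unadjusted paired test and 2201 with normexp. In TIAR versus HuR 2925 were called, 1185 to 1832 with normexp, normexp and quantile, the deposited table, the unadjusted paired test or all 8 arrays in one fit, and 777 and 662 without HuR replicates 1 and 2. In TIAR versus TIA1 659 were called, 286 to 426 with those same settings, 0 with the block or with dim probes tested, and 0 to 34 without 1 array. Against GFP, quantile normalization moved the median of all probes by 0.23 to 0.27 and the deposited table by 0.15 to 0.20, and the latter moved TIAR versus HuR by -0.10. Over the 5 scalings other than none, the sign of the difference varied for 0 member probes in TIA1 versus HuR and versus GFP, 2 in TIAR versus HuR (TOB1 and GADD45G A_24_P120934), 6 in HuR versus GFP, 1 in TIAR versus GFP (GADD45G A_24_P120934) and 1 in TIAR versus TIA1 (TOB2). The cause of these changes was not tested.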
